A study of Caenorhabditis elegans with 4 samples.

Results

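The comparison of the ent-1 knockout with wild type was made on 1 snRNA-seq library of each: 14935 nuclei of the ent-1 knockout (ent-1KO) and 11666 nuclei of wild type (ctrl), 26601 of the 52147 nuclei of the series. All barcodes of both libraries were used, including possible doublets. The ent-1KO worms were strain MCW1244, which carries the CRISPR deletion ent-1(rax74) on chromosome IV, and the ctrl worms were N2. Both were collected on day 1 of adulthood after feeding on HT115 bacteria with the empty RNAi vector L4440, as worms pooled per condition whose nuclei were stained with Hoechst and sorted from the whole body. The 2 other libraries serve here for comparison only: ent-1KO worms on HT115 bacteria expressing ent-2 RNAi (ent-1KO;ent-2KD), which share the deletion but not the bacteria of ent-1KO, and the ent-2KO strain MCW1245, which carries ent-2(rax75) on chromosome X and was fed the L4440 bacteria. The study asked how nucleoside transporters link the soma and the germline in reproduction. With 1 library per condition there is no replicate check of any difference below: intervals cover counting error between 2 libraries only, and no test was made.

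ENT-1 is an equilibrative nucleoside transporter of the SLC29 family. Such transporters let nucleosides cross a membrane down their concentration gradient, without sodium, and so supply the salvage pathway, which makes nucleotides from ready-made nucleosides and bases, beside de novo synthesis from amino acids and phosphoribosyl pyrophosphate. In the adult hermaphrodite the gonad holds dividing stem cells, meiotic nuclei and growing oocytes, all of which need nucleotides for DNA and RNA, and the intestine supplies the oocytes with yolk.

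The ent-1KO library held 32714922 UMIs (unique molecular identifiers, 1 per captured transcript) with a median of 1758 per nucleus, and the ctrl library held 21009254 with a median of 1414. The mitochondrial share was 0.386% in ent-1KO and 0.374% in ctrl, and ribosomal protein genes took 8.04% of UMIs in ent-1KO and 7.20% in ctrl. The libraries of ent-1KO and ctrl shared 49 barcodes, within the 43 to 61 shared by any pair of the 4 libraries. Levels are given as CPM, the UMIs of a gene scaled to the same total of UMIs in every set of nuclei. A gene counts as measured when it reached 20 CPM in ent-1KO or ctrl and 50 UMIs over both, and as higher or lower when its CPM differed at least 2-fold. Ratios are log2 of ent-1KO over ctrl with 0.5 UMI added to each count, followed by their exact 95% interval.

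Nuclei were grouped by clusters named from marker genes, and each class is called like the tissue whose markers it carried. The germline-like class held 41.6% (40.8 to 42.3%, exact binomial) of ent-1KO nuclei and 47.2% (46.3 to 48.1%) of ctrl nuclei, and the oocyte-like class 17.3% (16.7 to 17.9%) of ent-1KO nuclei and 13.01% (12.4 to 13.6%) of ctrl nuclei. When the libraries were clustered without integration the germline-like shares changed places, with 58.6% in ent-1KO and 56.3% in ctrl. Nuclei rich in ribosomal protein transcripts, which carried intestine markers but were kept apart from the intestine-like class, made up 13.7% of ent-1KO nuclei and 8.67% of ctrl nuclei. Embryo-like nuclei made up 6.31% in ent-1KO and 9.32% in ctrl, and neuron-like nuclei 2.69% in ent-1KO and 3.97% in ctrl. Sperm-like nuclei numbered 218 in ent-1KO and 86 in ctrl. Coelomocyte-like nuclei numbered 54 in ent-1KO and 8 in ctrl, too few for a comparison of genes. Over the sum of all nuclei, fewer nuclei of a type and less RNA per nucleus cannot be told apart.

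The transcript of the deleted gene was low in every class of ent-1KO nuclei. Over all nuclei ent-1 (WBGene00001320, IV:11653417-11655470, minus strand, WBcel235) had 16.7 CPM in ent-1KO, 14.7 CPM in ent-1KO;ent-2KD, 142 CPM in ent-2KO and 141 CPM in ctrl. These levels came from 547 UMIs in ent-1KO and 2958 UMIs in ctrl, a log2 ratio of -3.07 (-3.21 to -2.94). Both libraries labelled with the ent-1 deletion thus lay at least 8-fold below both libraries without it. Reads from the 3' end give the transcript level and do not show the deleted bases.

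In the germline-like class, where ctrl nuclei had the most ent-1, its level was 21.8 CPM in ent-1KO, 34.3 CPM in ent-1KO;ent-2KD, 213 CPM in ent-2KO and 203 CPM in ctrl, a ratio of -3.22. In ribosomal-rich nuclei it was 10.8 CPM in ent-1KO and 141 CPM in ctrl, a ratio of -3.68. In neuron-like nuclei it was 9.42 CPM in ent-1KO and 122.3 CPM in ctrl (-3.57), and in hypodermis-like nuclei 8.25 CPM in ent-1KO and 91.0 CPM in ctrl (-3.44). The ratio of least size among the 6 classes where ent-1 was measured was -2.44, in the oocyte-like class, with 17.6 CPM in ent-1KO and 95.8 CPM in ctrl. In the other 5 classes, each below the minimum of UMIs or CPM, the ratio lay between -3.09 (sperm-like) and -2.20 (muscle-like), and in pharynx-like nuclei it rested on 1 UMI in ent-1KO and 8 in ctrl (-2.81, -8.78 to -0.41). The remaining ent-1 level in ent-1KO nuclei was of 5.58 to 21.8 CPM by class, and whether it comes from the nuclei themselves, from free RNA or from reads of a related gene was not tested.

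**Figure D1:**
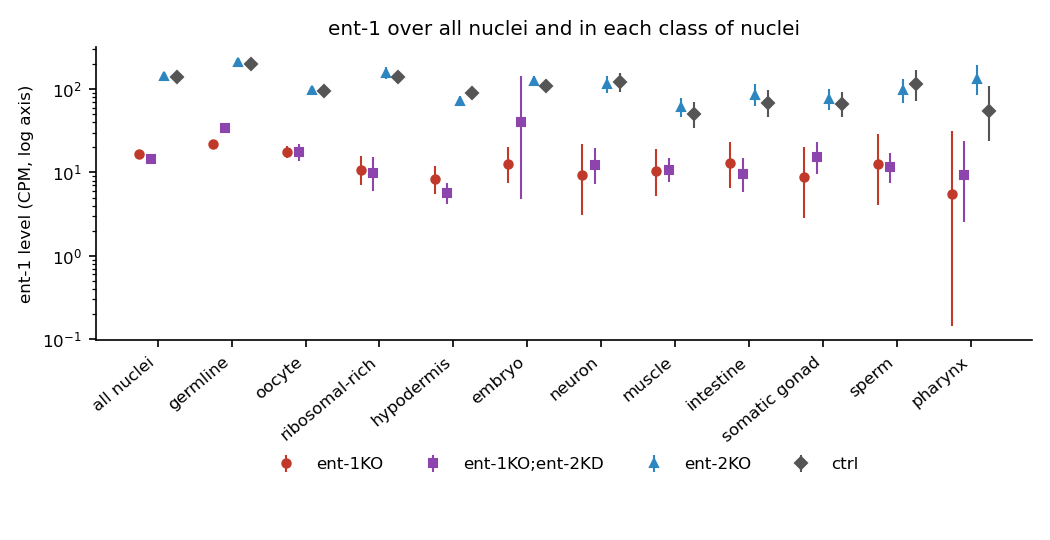
Level of ent-1 in CPM (log axis) over all nuclei and in 11 classes of nuclei, with 1 point per library and exact 95% counting intervals. ent-1KO and ent-1KO;ent-2KD lie below ent-2KO and ctrl in every class, at 16.7 and 14.7 CPM over all nuclei against 142 and 141 CPM; the interval of ent-1KO;ent-2KD in the embryo-like class is wide because that library had 34 such nuclei.

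No other nucleoside transporter that was measured over all nuclei was 2-fold apart. ent-2, a close relative of ent-1, had 24.2 CPM in ent-1KO, 18.1 CPM in ent-1KO;ent-2KD, 9.02 CPM in ent-2KO and 25.4 CPM in ctrl, and its ratio of ent-1KO to ctrl was -0.07 (-0.23 to 0.09). In the somatic gonad-like class, where ent-2 was highest among the classes, it had 163 CPM in ent-1KO and 230 CPM in ctrl (-0.50). ent-6 was level at 104.02 CPM in ent-1KO and 101 CPM in ctrl (0.05). ent-5 was the transporter with the largest ratio above 0, with 27.2 CPM in ent-1KO, 7.60 CPM in ent-1KO;ent-2KD, 19.5 CPM in ent-2KO and 14.9 CPM in ctrl (0.87, 0.68 to 1.06), short of 2-fold. In the oocyte-like class, its place of most UMIs, ent-5 had 73.4 CPM in ent-1KO and 52.4 CPM in ctrl (0.49). The part of the larger oocyte-like share of ent-1KO nuclei in the ent-5 ratio over all nuclei was not tested. ent-3, ent-4 and ent-7 were below the minimum over all nuclei, and ent-3 had 353 CPM in the sperm-like nuclei of ent-1KO and 464 CPM in those of ctrl (-0.40). Of the 42 genes within 50 kb of ent-1, 19 were measured over all nuclei and 0 were 2-fold apart. Their median was 0.01, and they lay between -0.65 for inx-8 (26.04 CPM in ent-1KO, 40.8 CPM in ctrl) and 0.18 for ZK809.3 (180 CPM in ent-1KO, 158 CPM in ctrl). Within classes some neighbours were 2-fold apart. Of 11 measured in intestine-like nuclei 1 was higher, ragc-1 (1.12), and of 12 in neuron-like nuclei 1 was lower, ZK792.7 (-1.36). In oocyte-like, embryo-like, muscle-like, sperm-like and pharynx-like nuclei none were.

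Beyond ent-1, few genes were 2-fold apart over all nuclei. Of 7135 measured genes, 24 (0.336%) were at least 2-fold higher in ent-1KO and 38 (0.533%) were at least 2-fold lower. The median log2 ratio was 0.01, with -0.43 and 0.43 as its 5th and 95th percentiles. Without the nucleus richest in each gene, 23 of the 24 higher and 31 of the 38 lower genes were still 2-fold apart. When clusters were weighted to the ctrl shares, 16 genes were higher in place of 24, 15 of them shared, and 17 were lower in place of 38.

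Neuropeptide genes led the highest ratios. flp-1, which encodes FMRFamide-like neuropeptides, had 198 CPM in ent-1KO, 222 CPM in ent-1KO;ent-2KD, 25.4 CPM in ent-2KO and 13.4 CPM in ctrl, a ratio of ent-1KO to ctrl of 3.89 (3.72 to 4.07) or 14.8-fold. nlp-49, a neuropeptide-like protein gene, had 87.1 CPM in ent-1KO, 128 CPM in ent-1KO;ent-2KD, 14.6 CPM in ent-2KO and 7.81 CPM in ctrl (3.48). flp-11, another FMRFamide-like neuropeptide gene, known for its part in sleep through the RIS neuron, had 152 CPM in ent-1KO, 194 CPM in ent-1KO;ent-2KD, 47.9 CPM in ent-2KO and 16.52 CPM in ctrl (3.20). zig-2, which encodes a secreted immunoglobulin-domain protein, had 20.8 CPM in ent-1KO, 21.9 CPM in ent-1KO;ent-2KD, 3.03 CPM in ent-2KO and 1.57 CPM in ctrl (3.71). In each of the 4 genes, both libraries with the ent-1 deletion were above both without it, and ent-2KO lay between them and ctrl. Both libraries with the deletion come from the same strain, so the deletion and the strain background cannot be told apart.

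Below these came C17H12.8, with 46.98 CPM in ent-1KO, 117 CPM in ent-1KO;ent-2KD, 17.3 CPM in ent-2KO and 10.2 CPM in ctrl (2.20). The histone genes his-40 and his-38 had 28.24 and 23.9 CPM in ent-1KO, against 7.76 and 9.28 CPM in ctrl (1.86 and 1.36). They led 1 hypodermis-like cluster, which held 151 nuclei in ent-1KO and 72 in ctrl, and without the 10 nuclei richest in each the ratios were 1.18 and 0.85. Within hypodermis-like nuclei the ratios of his-40 and his-38 were larger than over all nuclei. The part of the cluster's size in these ratios was not tested. aman-1, an alpha-mannosidase gene, had 21.8 CPM in ent-1KO and 6.81 CPM in ctrl (1.67) and led the coelomocyte-like cluster, where ent-1KO had more nuclei. T05A8.3 had 63.3 CPM in ent-1KO and 19.8 CPM in ctrl (1.68), and 0.74 without its 10 richest nuclei. C14C6.5 (1.50), T10D4.6 (1.46) and M01B2.10 (1.36) complete the 12 highest, and their ratios were 1.55, 1.50 and 1.46 without the 10 nuclei richest in each.

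**Figure D2:**
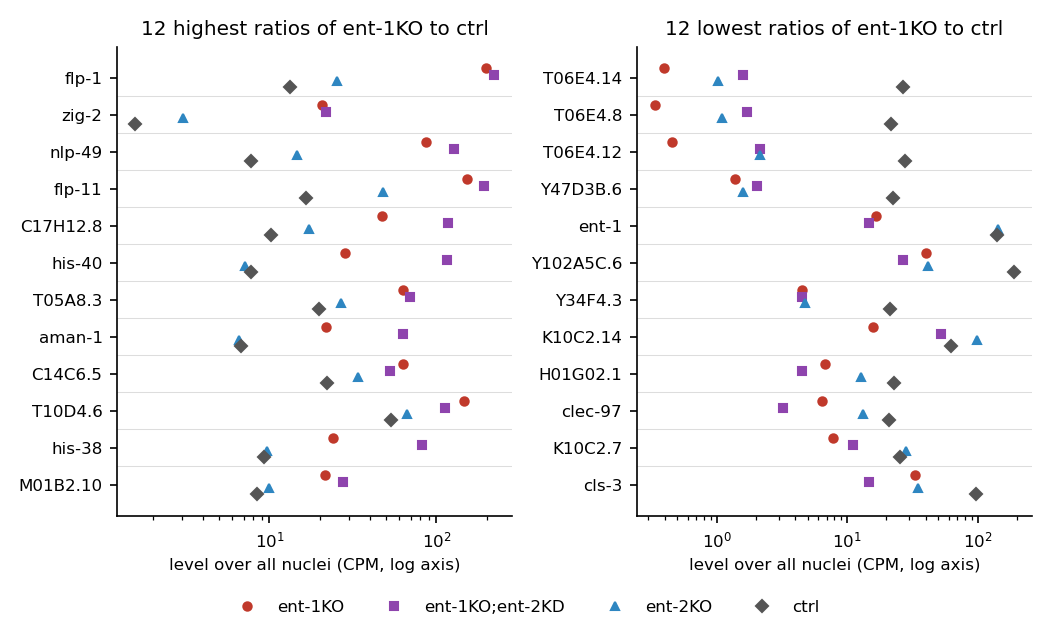
Levels in CPM (log axis) over all nuclei of the 12 genes with the highest and the 12 with the lowest ratio of ent-1KO to ctrl, with 1 point per library and no error bars. flp-1, zig-2, nlp-49 and flp-11 are high in ent-1KO and ent-1KO;ent-2KD (198 and 222 CPM for flp-1) and low in ctrl (13.4 CPM), while the T06E4 genes are high in ctrl alone (26.7 CPM for T06E4.14, against 1.59 CPM at most in the other libraries).

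The neuropeptide transcripts were spread over all classes and also concentrated in few nuclei. In ent-1KO, flp-1 had at least 1 UMI in 2236 nuclei, and 12 nuclei with at least 30 flp-1 UMIs each held 58.0% of the library's flp-1. These 12 nuclei, 10 neuron-like and 2 hypodermis-like, also held 57.7% of its nlp-49 and 63.9% of its flp-11. In ctrl, flp-1 had a UMI in 1.11% of the 11666 nuclei, and 2 nuclei, both neuron-like, passed 30 UMIs and held 44.5%. The richest nucleus had 929 flp-1 UMIs in ent-1KO, 111 in ent-1KO;ent-2KD, 93 in ent-2KO and 74 in ctrl. Outside such rich nuclei, flp-1 stood at 83.4 CPM in ent-1KO, 177 CPM in ent-1KO;ent-2KD, 17.2 CPM in ent-2KO and 7.43 CPM in ctrl. The order of the libraries was the same outside the rich nuclei as over all nuclei.

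**Figure D3:**
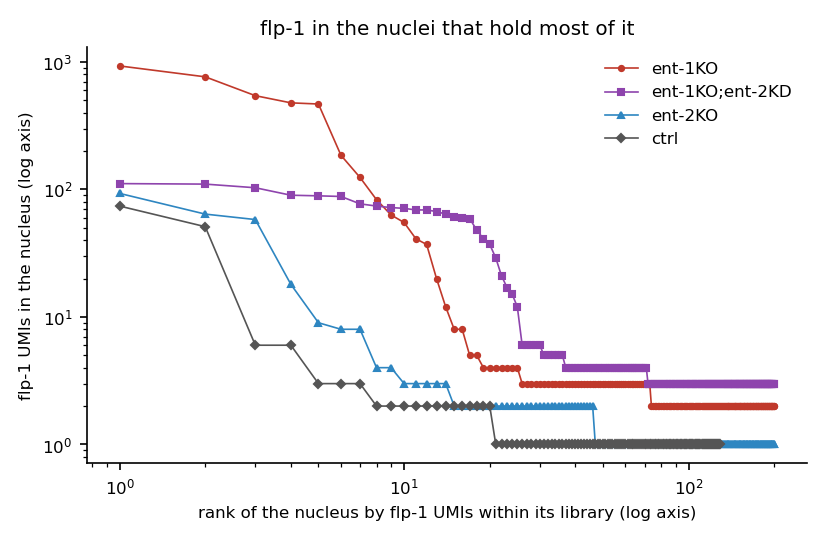
flp-1 UMIs per nucleus (log axis) against the rank of the nucleus within its library (log axis), for up to 200 nuclei with the most flp-1 in each library. The leading ent-1KO nucleus has 929 UMIs and the leading ctrl nucleus 74, and beyond the rich nuclei the ent-1KO and ent-1KO;ent-2KD lines stay above those of ent-2KO and ctrl.

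By class, flp-1 was at least 2-fold higher in all 9 classes where it was measured, with ratios between 2.27 in muscle-like and 5.55 in hypodermis-like nuclei. Of the 846 flp-1 UMIs of hypodermis-like nuclei in ent-1KO, 543 and 124 were in 2 nuclei, and the ratio there was 4.91 without the richest nucleus and 3.64 with classes made without integration. In germline-like nuclei flp-1 had 80.8 CPM in ent-1KO, 205 CPM in ent-1KO;ent-2KD, 16.6 CPM in ent-2KO and 5.53 CPM in ctrl (3.86). The share of germline-like nuclei with a flp-1 UMI was 13.5% in ent-1KO and 0.762% in ctrl, at a median of 1871 UMIs per nucleus in ent-1KO and 1422 in ctrl. In neuron-like nuclei the share was 18.2% in ent-1KO and 1.51% in ctrl, at medians of 933 UMIs in ent-1KO and 802 in ctrl, and over all classes it lay between 13.04 and 29.6% in ent-1KO and between 0 and 2.33% in ctrl. Within ent-1KO, the ratio of flp-1 to nlp-49 UMIs was 2.33 in germline-like, 2.34 in oocyte-like, 2.17 in ribosomal-rich, 2.32 in embryo-like and 2.17 in neuron-like nuclei. It was 2.66 in hypodermis-like and 1.92 in pharynx-like nuclei. The ratio of flp-1 to flp-11 UMIs was less even, at 0.939 in neuron-like, 1.696 in germline-like and 1.95 in ribosomal-rich nuclei. It was 1.99 in oocyte-like, 2.29 in embryo-like and 3.54 in hypodermis-like nuclei. These ratios include the rich nuclei, and their differences between classes were not tested. The UMIs outside the rich nuclei are not read here as expression in those classes. With free RNA subtracted, 5 of the 11 higher and all 5 lower genes of germline-like nuclei were still 2-fold apart. In oocyte-like nuclei 5 of the 12 higher and 5 of the 17 lower genes were. Values of single genes under this setting are not given, so the part of free RNA in the flp-1 ratios is not known. flp-11 was higher in all 7 classes where it was measured (2.43 to 3.85) and nlp-49 in all 5 (3.17 to 4.14). C17H12.8 was higher in all 7 of its classes (1.91 to 2.64), and its UMIs came from 1338 nuclei in ent-1KO and 205 in ctrl.

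A protease gene, a saposin-like gene and 1 yolk protein gene were also higher in most classes. asp-14, an aspartyl protease gene, was 2-fold higher in 9 of 10 classes (0.94 to 2.31) and spp-14, a saposin-like gene, in 9 of 11 (0.93 to 1.80). The summed intestine markers, which include vit-1, were also higher in ent-1KO in every class compared except the ribosomal-rich one. They had 11590 CPM in ent-1KO and 6934 CPM in ctrl in sperm-like nuclei, and 28442 and 29085 CPM in ribosomal-rich nuclei. The part of intestinal RNA in these ratios was not tested. The yolk protein gene vit-1 had 1234 CPM in ent-1KO, 1397 CPM in ent-1KO;ent-2KD, 462 CPM in ent-2KO and 601 CPM in ctrl over all nuclei (1.04), and it was above 0 in 11 of 11 classes and 2-fold higher in 8 (0.81 to 1.57). Its near copy vit-2 had 1374 CPM in ent-1KO, 2642 CPM in ent-1KO;ent-2KD, 980 CPM in ent-2KO and 1444 CPM in ctrl (-0.07), with 0 of 11 classes 2-fold apart. Of 6 yolk protein genes measured over all nuclei, only vit-1 lay above 0 (median -0.03). How reads common to both copies were counted was not examined, so the values of either are uncertain. T10D4.6 was unequal between classes: its ratio was 3.11 in germline-like nuclei (130 CPM in ent-1KO, 15.1 CPM in ctrl) and 0.34 in intestine-like nuclei.

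At the low end stood a group of genes whose ctrl level rested in part on 1 nucleus. T06E4.14 had 0.397 CPM in ent-1KO, 1.59 CPM in ent-1KO;ent-2KD, 1.02 CPM in ent-2KO and 26.7 CPM in ctrl (-6.02, 13 UMIs in ent-1KO and 561 in ctrl). T06E4.8 (-5.94) and T06E4.12 (-5.88), its neighbours on chromosome V, and Y47D3B.6 (-4.02) on chromosome III were likewise highest in ctrl and lowest in ent-1KO. A single ctrl nucleus of 10550 UMIs was the richest nucleus for 7 of the 38 genes lower in ent-1KO. It clustered with hypodermis-like nuclei but had 399 UMIs of pharynx markers and 29 of hypodermis markers. Outside that nucleus, T06E4.14 still had 310 ctrl UMIs (14.8 CPM, -5.16), T06E4.8 had 244 (-5.05), T06E4.12 had 279 (-4.81) and Y47D3B.6 had 275 (-3.24). No other ctrl nucleus held more than 3 UMIs of T06E4.14, 4 of T06E4.8, 5 of T06E4.12 or 3 of Y47D3B.6, so these UMIs were thinly spread, and the part of free RNA in them was not tested. With it left out, 35 of the 38 lower genes were still 2-fold lower.

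Other low genes were spread over many ctrl nuclei. Y102A5C.6, annotated as a pseudogene, had 40.4 CPM in ent-1KO, 26.6 CPM in ent-1KO;ent-2KD, 41.6 CPM in ent-2KO and 190 CPM in ctrl (-2.23), from 1125 nuclei in ent-1KO and 2758 in ctrl. It was 2-fold lower in all 7 classes where it was measured (-2.63 to -1.61). Y34F4.3 had 4.52 CPM in ent-1KO, 4.48 CPM in ent-1KO;ent-2KD, 4.77 CPM in ent-2KO and 21.1 CPM in ctrl (-2.22). cls-3, which encodes a CLASP-family protein that binds microtubules, had 32.9 CPM in ent-1KO, 14.8 CPM in ent-1KO;ent-2KD, 34.8 CPM in ent-2KO and 97.2 CPM in ctrl (-1.56), with ratios by class between -2.81 in germline-like and -0.36 in neuron-like nuclei. For these 3 genes ctrl stood above all 3 mutant libraries. Strain background and library cannot be told apart here, since ctrl is the only N2 library.

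R12H7.4 was the most extreme of such genes within a class. Its oocyte-like level was 0 UMIs in ent-1KO, ent-1KO;ent-2KD and ent-2KO and 208 UMIs (49.1 CPM) in 151 ctrl nuclei, at least 147-fold lower in ent-1KO when 3 UMIs are allowed for that library. Over all nuclei it had 7 UMIs in ent-1KO, 5 in ent-1KO;ent-2KD, 3 in ent-2KO and 294 in ctrl. It overlaps the end of asp-4, an aspartyl protease gene on the other strand of chromosome X, which had 75.8 CPM in ent-1KO and 124.6 CPM in ctrl over all nuclei (-0.72).

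K10C2.14 (-1.98), H01G02.1 (-1.77), clec-97 (-1.71) and K10C2.7 (-1.68) were among the leading genes of 2 clusters. K10C2.14 had 15.7 CPM in ent-1KO, 52.7 CPM in ent-1KO;ent-2KD, 99.2 CPM in ent-2KO and 62.1 CPM in ctrl. The somatic gonad-like cluster it leads held 95 nuclei in ent-1KO and 99 in ctrl, and the unnamed cluster in which all 4 are prominent held 15 in ent-1KO and 41 in ctrl. With clusters weighted to the ctrl shares the ratios of the 4 genes were -1.20, -0.97, -0.60 and -0.84, so that only K10C2.14 remained 2-fold lower.

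A second comparison of an ent-1 deletion was available in libraries that the first does not use, ent-1KO;ent-2KD over ent-2KO. It differs from the first in its background, where ent-2 is reduced by RNAi in one library and deleted in the other. Both pairs take the ent-1 deletion from the same strain, so deletion and strain background cannot be told apart in either. Of 22 genes higher in ent-1KO than in ctrl and measured in both pairs, 22 lay above 0 and 19 were 2-fold higher in the second pair, where 33.4% of all genes lay above 0 and 11.2% were 2-fold higher. Of 27 lower genes, 17 lay below 0, no larger a share than among all genes. Of the 27, 12 were 2-fold lower, where 16.7% of all genes were. flp-1 was at 3.13 in the second pair, nlp-49 at 3.12, zig-2 at 2.84 and flp-11 at 2.01. ent-1 was at -3.28. his-40 and aman-1 were at 4.00 and 3.26 in the second pair, above their ratios in the first. The hypodermis-like cluster led by his-40 held 287 nuclei in ent-1KO;ent-2KD and 69 in ent-2KO, and the coelomocyte-like cluster 154 in ent-1KO;ent-2KD and 9 in ent-2KO. Germline-like nuclei made up 18.9% of ent-1KO;ent-2KD and 45.2% of ent-2KO, and the part of these shares in the ratios of the second pair was not tested. In contrast, Y102A5C.6 was at -0.64 and Y34F4.3 at -0.09. Over all 6988 genes measured in both pairs the ratios were barely correlated (Pearson r = 0.06), across genes, which are not independent replicates.

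In the germline-like class, 11 genes were higher in ent-1KO than in ctrl, and all 11 lay above 0 in the second pair, 9 of them 2-fold, where 48.4% of all genes lay above 0 and 5.69% were 2-fold higher. The 9 were flp-1, nlp-49, flp-11, C17H12.8, T10D4.6, asp-14, lys-2, spp-14 and vit-1. Intestine markers in this class summed to 8264 CPM in ent-1KO and 7342 CPM in ctrl, and to 11761 CPM in ent-1KO;ent-2KD and 5318 CPM in ent-2KO, and their part in the intestinal genes among the 9 was not tested. Of 3 lower genes measured in both pairs, 1 was 2-fold lower in both, ent-1. In hypodermis-like nuclei the ratios of the pairs were correlated over genes (r = 0.45 over 6816 genes). Germline markers in this class were lower with the ent-1 deletion in both pairs, with 2955 CPM in ent-1KO and 4758 CPM in ctrl, and 1774 CPM in ent-1KO;ent-2KD and 4229 CPM in ent-2KO, and their part in the correlation was not tested. In neuron-like nuclei the ratios of the pairs were not correlated (r = -0.05). Of 78 higher genes there, 30 lay above 0 in the second pair, where 28.07% of all genes did. Of 115 lower genes, 76 lay below 0, no larger a share than among all genes.

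**Figure D4:**
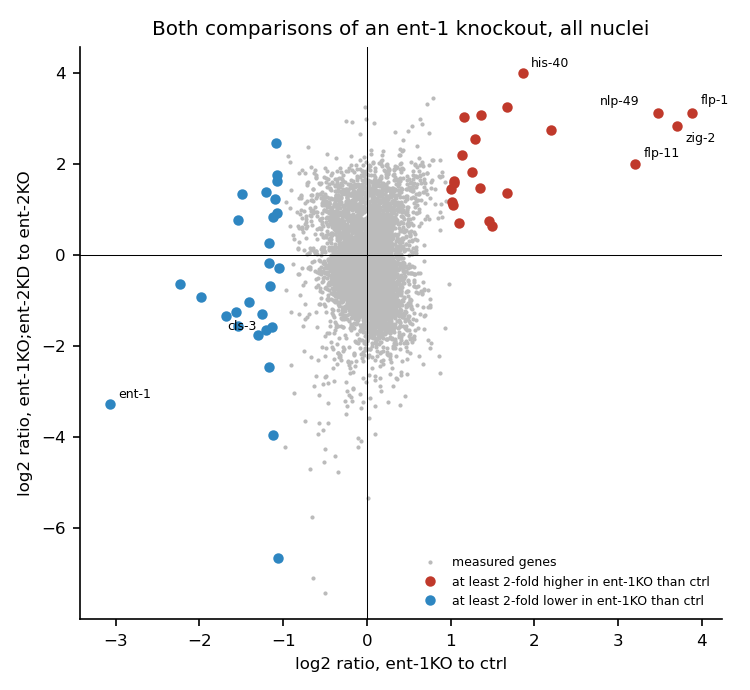
Log2 ratio over all nuclei of ent-1KO;ent-2KD to ent-2KO (vertical) against that of ent-1KO to ctrl (horizontal), with 1 point per gene measured in both pairs. The 22 genes at least 2-fold higher in ent-1KO than in ctrl lie above 0 on both axes. Of the 27 lower genes 17 lie below 0 on the vertical axis, where 33.4% of all genes lie above 0.

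The share of genes 2-fold apart was smallest in the germline-like and oocyte-like classes, those with the most nuclei, and largest in the pharynx-like class, that with the fewest. The median ratio lay between -0.05 and 0.05 in all classes compared except the hypodermis-like one, where it was -0.29.

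**Figure D5:**
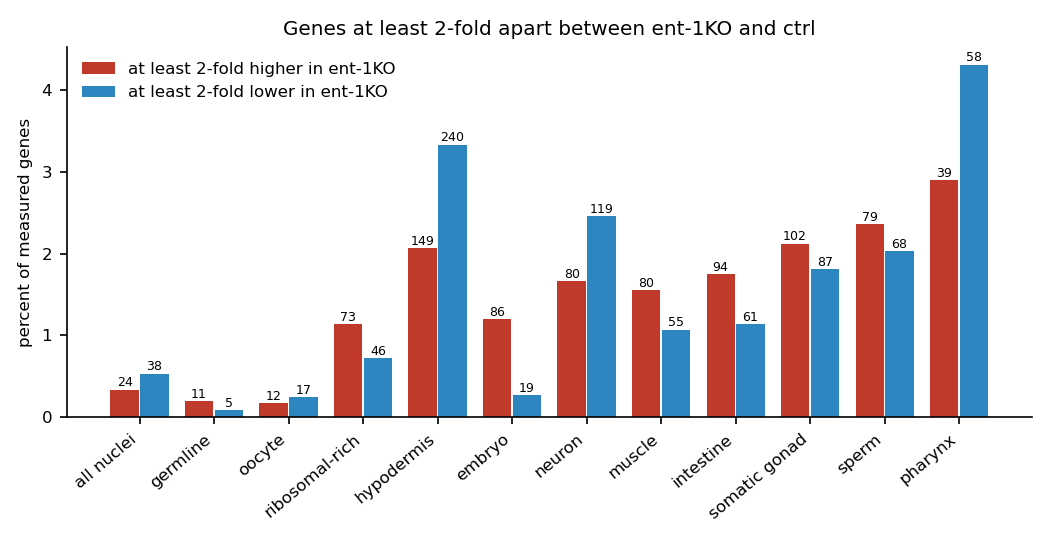
Percent of measured genes at least 2-fold higher or lower in ent-1KO than in ctrl, over all nuclei and by class, with the number of genes above each bar. The germline-like class has 11 higher and 5 lower genes and the hypodermis-like class 149 higher and 240 lower.

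In germline-like nuclei, 11 of 5667 measured genes (0.194%) were higher in ent-1KO and 5 (0.0882%) were lower. All 16 were still 2-fold apart without the nucleus richest in each. With free RNA subtracted, 5 of the 11 higher genes and all 5 lower genes were still 2-fold apart, among 34 higher and 34 lower. Beside the neuropeptide genes, asp-14 had 85.9 CPM in ent-1KO and 35.0 CPM in ctrl (1.29), and lys-2, a lysozyme gene, had 41.7 CPM in ent-1KO and 18.2 CPM in ctrl (1.19). spp-14 had 330 CPM in ent-1KO and 159 CPM in ctrl (1.06), and vit-1 had 1142 CPM in ent-1KO and 551 CPM in ctrl (1.05). These are intestinal genes by their known expression. The lower genes were ent-1, cls-3 (12.8 CPM in ent-1KO, 90.1 CPM in ctrl, -2.81), Y102A5C.6 (60.7 CPM in ent-1KO, 301 CPM in ctrl, -2.31), Y34F4.3 (7.09 CPM in ent-1KO, 29.6 CPM in ctrl, -2.06) and the pseudogene Y116F11B.10 (13.9 CPM in ent-1KO, 29.9 CPM in ctrl, -1.10). No gene of the germline stem cell pool was 2-fold apart: of 10 measured, 6 lay above 0, between -0.31 for lag-1, the transcription factor of Notch signalling, and 0.16 for gld-1. sygl-1, a Notch target in stem cells, had 71.5 CPM in ent-1KO and 86.3 CPM in ctrl (-0.27, -0.41 to -0.13). Of 21 DNA replication and ribonucleotide reductase genes 14 lay above 0, with a median of 0.06 and none 2-fold apart, between cdt-1 (-0.20) and psf-3 (0.30).

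Oocyte-like nuclei had 12 of 6893 genes (0.174%) higher in ent-1KO and 17 (0.247%) lower. Beside flp-1 (46.3 CPM in ent-1KO, 5.66 CPM in ctrl), flp-11 (2.67), C17H12.8 (2.18) and C14C6.5 (1.49), the small heat shock genes hsp-16.41 (1.34) and hsp-16.2 (1.10) were higher, the only 2 of 6 measured heat shock genes. hsp-16.41 had 52.7 CPM in ent-1KO, 6.24 CPM in ent-1KO;ent-2KD, 19.9 CPM in ent-2KO and 20.8 CPM in ctrl, so that the library with both transporters reduced was the lowest. Of the lower genes, R12H7.4, Y34F4.3 (-2.94), ent-1 and Y102A5C.6 (-1.82) were followed by Y82E9BR.17, with 7.45 CPM in ent-1KO, 1.72 CPM in ent-1KO;ent-2KD, 14.9 CPM in ent-2KO and 25.7 CPM in ctrl (-1.78).

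Ribosomal-rich nuclei had 73 of 6386 genes (1.14%) higher and 46 (0.72%) lower. With free RNA subtracted, at 92.4% of UMIs in ent-1KO and 81.8% in ctrl, 1055 genes were measured and the balance turned to 50 higher and 126 lower, which shared 19 and 4 genes with the values given here. nlp-49 led at 4.13 (104.2 CPM in ent-1KO, 5.49 CPM in ctrl). dod-24, a gene downstream of the insulin-pathway factor DAF-16, had 38.9 CPM in ent-1KO, 62.5 CPM in ent-1KO;ent-2KD, 15.8 CPM in ent-2KO and 4.58 CPM in ctrl (2.96), from 90 UMIs in ent-1KO and 5 in ctrl, and C32H11.4 followed at 2.59. Muscle markers summed to 3543 CPM in ent-1KO and 5558 CPM in ctrl in this class, and their part in the sarcomere values was not tested. Of the sarcomere genes 0 of 20 lay above 0, their median was -0.52 against -0.03 for all genes, and ttn-1, the titin-like kinase gene, had 419 CPM in ent-1KO, 707 CPM in ent-1KO;ent-2KD, 745 CPM in ent-2KO and 1047 CPM in ctrl (-1.32). Of 5 purine de novo genes measured, 0 lay above 0 and 0 were 2-fold apart (median -0.31), with pfas-1, of the de novo pathway, lowest at -0.86. Other low genes were Y69A2AR.25 (-1.80), cdc-25.2, a cell cycle phosphatase gene (24.2 CPM in ent-1KO, 79.6 CPM in ctrl, -1.71), and B0228.1 (-2.84), whose ratio was -0.26 without its richest nucleus.

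Hypodermis-like nuclei had the most genes apart, 149 of 7201 (2.07%) higher and 240 (3.33%) lower. These calls depended on how the class was drawn. At resolution 0.4, with 3174 genes measured, 36 of the 149 and 43 of the 240 were called again. Without integration, with 3990 genes measured, 41 and 56 were, and at resolution 1.6, with 7156 genes measured, 144 and 222. The balance depended on the scale: with the median ratio set to 0 (a shift of 0.29), 404 genes were higher and 58 lower. Hypodermis markers summed to 40275 CPM in ent-1KO and 25205 CPM in ctrl, and germline markers, 0 of 37 of which lay above 0, to 2955 CPM in ent-1KO and 4758 CPM in ctrl. The part of such RNA of other tissues in the lower genes was not tested. The median ratio was 0.26 for the 660 genes on chromosome X and between -0.41 and -0.17 on the autosomes. In the other classes the X median ranged from -0.24 in neuron-like to 0.21 in embryo-like nuclei. The germline is known to express few genes of the X, and the part of germline RNA in these medians was not tested. Of 84 measured collagen genes of the col family, which build the cuticle, 75 lay above 0 and 12 were higher, with 1 lower.

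Among single genes, his-40 had 173 CPM in ent-1KO, 345 CPM in ent-1KO;ent-2KD, 5.18 CPM in ent-2KO and 4.92 CPM in ctrl (5.08), and his-38 had 131 CPM in ent-1KO, 245 CPM in ent-1KO;ent-2KD, 6.91 CPM in ent-2KO and 6.15 CPM in ctrl (4.37). fat-5, a fatty acid desaturase gene, was at 1.52. dpy-20, a body shape gene close to ent-1, was at 2.23 in this class. pals-26 (5.07) rested on 67 UMIs in 4 ent-1KO nuclei, and F33D4.6 (4.75) on 90 UMIs in 11. The 5 lowest genes, T06E4.8, pqn-63, abu-14, T06E4.9 and M02G9.2, had 0 UMIs in ent-1KO and 108 to 223 in ctrl, at least 48.3-fold to 99.8-fold lower. These bounds rested mostly on the single ctrl nucleus rich in pharynx markers. It held 208 of the 223 ctrl UMIs of T06E4.8, 135 of the 146 of pqn-63 and 97 of the 112 of abu-14. It also held 95 of the 111 of T06E4.9 and 96 of the 108 of M02G9.2.

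Embryo-like nuclei had 86 of 7158 genes (1.2%) higher and 19 (0.265%) lower. With free RNA subtracted, at 70.9% of UMIs in ent-1KO and 78.2% in ctrl, 3090 genes were measured. Of the 86 higher genes 15 were then called again, and of the 19 lower genes 0. With doublets removed, 49 and 11 were called again. After flp-1, nlp-49 and flp-11 came C01B10.6, with 32.2 CPM in ent-1KO, 13.3 CPM in ent-2KO and 6.65 CPM in ctrl (2.22). The fbxb family of F-box genes stood high, with 55 of 64 above 0, 5 higher, 0 lower and a median of 0.53 against 0.01 for all genes. Of 15 embryo markers measured, 13 lay above 0 (median 0.38), among them tbx-11 at 0.75. The lowest beside ent-1 and Y102A5C.6 were alh-13, an aldehyde dehydrogenase gene (7.49 CPM in ent-1KO, 32.6 CPM in ctrl, -2.07), the pseudogene M162.9 (-1.65) and the non-coding F07A11.12 (-1.57). The 2 embryo-like clusters took 77.4 and 22.6% of the class in ent-1KO and 73.4 and 26.6% in ctrl.

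In neuron-like nuclei, 80 of 4831 genes (1.66%) were higher and 119 (2.46%) lower. The 5 highest were zig-2 (718 CPM in ent-1KO, 127 CPM in ent-1KO;ent-2KD, 48.5 CPM in ent-2KO and 31.1 CPM in ctrl, 4.48), flp-1 (4.43), nlp-49 (4.10), flp-11 (3.85) and C02B8.3 (3.45, 186 UMIs in 15 ent-1KO nuclei). The class included 10 nuclei rich in flp-1 in ent-1KO and 2 in ctrl. In ent-1KO the richest held 929 of the 3205 flp-1 and 145 of the 381 zig-2 UMIs of the class. In ctrl the richest held 74 of the 135 flp-1 UMIs. The values of flp-1 and zig-2 thus rested on few nuclei and are not read as changes across the class. Other neuropeptide genes were mixed or low. Of 27 measured genes of the flp family, 2 were higher, 10 lower and 7 above 0, with a median of -0.75, and of 7 ins genes, which encode insulin-like peptides, 0 were above 0 and 3 lower. nlp-14, which encodes neuropeptides, had 32.0 CPM in ent-1KO, 63.2 CPM in ent-1KO;ent-2KD, 141 CPM in ent-2KO and 259 CPM in ctrl (-2.98), and flp-24 had 99.8 CPM in ent-1KO, 118 CPM in ent-1KO;ent-2KD, 105 CPM in ent-2KO and 433 CPM in ctrl (-2.11). The nlp family was mixed, with 6 of 32 higher, 9 lower and a median of -0.07. Of 19 neuron markers measured, 6 lay above 0, with a median of -0.44, and their sum was 9607 CPM in ent-1KO and 10626 CPM in ctrl. The kinds of neuron among the 402 ent-1KO and 463 ctrl nuclei were not separated.

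Muscle-like nuclei had 80 of 5153 genes (1.55%) higher and 55 (1.07%) lower. catp-3, an ATPase gene, was highest (58.5 CPM in ent-1KO, 4.82 CPM in ctrl, 3.39, from 13 ent-1KO nuclei and 2 ctrl nuclei), followed by flp-11, B0035.13 (2.59), asp-14 (2.31) and flp-1. Collagen genes of the col family lay above 0 in 28 of 29 cases and 7 were higher (median 0.76). Hypodermis markers summed to 4176 CPM in ent-1KO and 2635 CPM in ctrl in this class, and their part in the collagen values was not tested. Muscle markers summed to 67644 CPM in ent-1KO and 78153 CPM in ctrl. The lowest genes were ugt-12, a glucuronosyltransferase gene (-1.98), C53B7.3 (-1.87, and -0.89 without its richest nucleus), semo-1 (-1.84) and the non-coding T22B2.11 (-1.84) and ZC132.10 (-1.76).

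Intestine-like nuclei, of the tissue that takes up food, had 94 of 5367 genes (1.75%) higher and 61 (1.14%) lower. Without the richest nucleus of each, 82 and 44 were still 2-fold apart. F17C11.12 (59.9 CPM in ent-1KO, 6.68 CPM in ctrl, 2.96), T10C6.15 (2.91), ptr-14, a patched-related gene (2.78, 58 UMIs in 4 ent-1KO nuclei), and set-12, a SET-domain gene (2.58), were the highest beside flp-1. Nuclear hormone receptor genes of the nhr family lay above 0 in 42 of 60 cases, with 7 higher and 1 lower. acdh-2, an acyl-CoA dehydrogenase gene, had 46.97 CPM in ent-1KO, 74.99 CPM in ent-1KO;ent-2KD, 41.1 CPM in ent-2KO and 171 CPM in ctrl (-1.86), and T05E12.3 was at -2.14, T24B8.4 at -1.94 and C09B8.4 at -1.73. Of 14 sarcomere genes 1 lay above 0 (median -0.49), with muscle markers at 1884 CPM in ent-1KO and 2740 CPM in ctrl in this class. The purine genes gave 1 of 11 salvage genes higher, gad-3, with 101 CPM in ent-1KO, 138 CPM in ent-1KO;ent-2KD, 80.5 CPM in ent-2KO and 33.4 CPM in ctrl (1.56), and 0 of 5 de novo genes apart (median 0.05).

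Somatic gonad-like nuclei had 102 of 4800 genes (2.12%) higher and 87 (1.81%) lower, of which 93 and 60 were still 2-fold apart without the richest nucleus of each. With free RNA subtracted, at 94.9% of UMIs in ent-1KO and 95% in ctrl, 1266 genes were measured. Of the 102 higher genes 37 were then called again, and of the 87 lower genes 52. The low end depended on single nuclei: C35B1.4 was at -5.01 and at -2.75 without its richest nucleus, nas-20, an astacin-type protease gene, at -4.41 and -1.91, T12B5.15 at -3.51 and -0.42, Y45F10C.4 at -2.44 and -1.29, and H01G02.1 at -3.55 and 0.995. At the high end, B0228.1 (5.72) came from 83 UMIs in 1 ent-1KO nucleus, while D1086.18 had 654 UMIs in 69 ent-1KO nuclei and 188 UMIs in 49 ctrl nuclei (1.71) and was at 1.76 without its richest nucleus. Y58A7A.5 (2.15) and C49G7.10 (2.14) were likewise no lower without it.

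Sperm-like nuclei had 79 of 3344 genes (2.36%) higher and 68 (2.03%) lower, of which 78 and 35 were still 2-fold apart without the richest nucleus of each. Sperm markers were level, at 13232 CPM in ent-1KO and 12885 CPM in ctrl, but intestine markers summed to 11590 CPM in ent-1KO and 6934 CPM in ctrl. Beside them, 6 of 7 aspartyl protease genes of the asp family were higher (median 1.15), and spp-14 (1.80), the lipase gene lipl-5 (1.67) and the lectin gene clec-50 (1.63) were among the 5 highest, after F07G6.11 (2.37) and T13F2.2 (2.20). The part of intestinal RNA in these values was not tested. Ribosomal protein genes of the large subunit lay above 0 in 44 of 44 cases (median 0.61). Of the 5 lowest, flp-28 (-5.03) and nlp-6 (-4.48) rested on 57 and 50 ctrl UMIs in 3 nuclei and 1 nucleus, and without the richest nucleus cab-1 (-2.51) was at -2.09, B0353.1 (-2.29) at 0.16 and ptp-3 (-2.27) at -0.93.

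Pharynx-like nuclei, with 108 in ent-1KO and 106 in ctrl, had 39 of 1347 genes (2.9%) higher and 58 (4.31%) lower. F14D2.19 and F13B6.3 had 185 and 113 UMIs in 1 ent-1KO nucleus each and 0 in ctrl, at least 49.8-fold and 30.4-fold higher. C49A9.9 was at 3.13, pqn-60, which encodes a protein rich in glutamine and asparagine, at 1.77 and idh-1, an isocitrate dehydrogenase gene, at 1.61. Of 6 heat shock genes 3 were higher, among them hsp-110 (268 CPM in ent-1KO, 65.6 CPM in ent-1KO;ent-2KD, 131 CPM in ent-2KO and 96.8 CPM in ctrl, 1.43) and hsp-1 (1005 CPM in ent-1KO and 450 CPM in ctrl, 1.15). The lowest were D1054.9 (-4.86, 58 ctrl UMIs in 2 nuclei), F40G12.2 (-2.42), F55C7.2 (-2.23), K10B4.3 (-1.99) and igeg-1 (-1.97).

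Genes of the pathways that make or use nucleosides were close to level over all nuclei. Of 4 measured purine de novo genes 0 were 2-fold apart and 0 lay above 0, with a median of -0.08. Of 9 purine interconversion and salvage genes 0 were apart and 5 lay above 0, between hprt-1 (-0.04), which salvages hypoxanthine and guanine, and adk-1, the adenosine kinase gene, with 121 CPM in ent-1KO, 144 CPM in ent-1KO;ent-2KD, 92.1 CPM in ent-2KO and 101 CPM in ctrl (0.26). Of 12 pyrimidine genes 0 were apart and 5 lay above 0 (median -0.05). Of 21 DNA replication genes 0 were apart and 18 lay above 0 (median 0.09). In the germline-like class 5 of 7 salvage genes lay above 0 (median 0.11), and in hypodermis-like nuclei adk-1 was at 0.75 against the class median of -0.29.

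Oocyte, eggshell and meiotic gene groups were close to level as well. Of 16 oocyte and maternal regulators 14 lay above 0 (median 0.19), of 14 eggshell genes 12 (0.11) and of 12 synaptonemal complex and meiotic axis genes 7 (0.03), with 0 of these 2-fold apart. Oocyte-like nuclei made up 17.3% of ent-1KO nuclei and 13.01% of ctrl nuclei, and the part of this share in these values was not tested. Of 8 measured somatic gonad markers 0 lay above 0 (median -0.51), and lim-7, a marker of the gonad sheath, was 2-fold lower (-1.17). Somatic gonad-like nuclei made up 1.87% of ent-1KO nuclei and 2.41% of ctrl nuclei, and the part of this share in the marker values was not tested. Among stress and metabolic groups, 1 of 7 heat shock genes was higher, hsp-16.41 (23.9 CPM in ent-1KO, 14.3 CPM in ent-1KO;ent-2KD, 8.34 CPM in ent-2KO and 9.95 CPM in ctrl, 1.26). The fatty acid synthase gene fasn-1 was at -0.73 and the desaturase gene fat-6 at 0.76, both short of 2-fold. Ribosomal protein genes lay above 0 in 44 of 44 cases for the large subunit (median 0.17) and 30 of 31 for the small subunit (0.15), none of them 2-fold apart.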

How the data were processed

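The deposited files hold counts of UMIs per gene and nucleus that the authors made with the 10x Chromium 3' chemistry and Cell Ranger (version 6.0 in the submitters' processing notes, 6.1.2 in the file headers) for the WS282 annotation. All 46926 features and all barcodes, with at least 500 UMIs each, were used. Integration and clustering of the 4 libraries used Seurat 5.3.0 (CCA, 2000 variable genes, 30 dimensions, Louvain resolution 0.8), and a cluster was named where the median log2 enrichment of a marker list reached 0.6. UMIs were summed per library and class and given as CPM with exact binomial intervals (scipy 1.17.1). Classes with 50 nuclei in both libraries were compared. The code was tested on simulated data.

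Named genes were the 12 highest and 12 lowest over all nuclei, the 5 highest and 5 lowest per class, the ent family, the extremes of each list and the germline genes 2-fold apart in both pairs of libraries. The gene lists, the naming rule for clusters and the comparisons were chosen with earlier results of these data known. Leaving out the nuclei richest in a gene, and the checks of rich nuclei, of the second pair and of genes 8-fold apart, were chosen after seeing the data. cdc-45, daf-21, dod-8, rab-27 and rde-3 were not found in the tables under these names. Doublets were not removed in the values given, and an alternative without them used scanpy 1.11.5 (Scrublet). The other alternatives were another UMI minimum or fold, 5 UMIs added, median-of-ratios scaling, clusters weighted to the ctrl shares, thinning to 500 UMIs, free RNA subtracted, and clustering without integration, without the ribosomal limit or at resolutions 0.4 and 1.6. Intervals cover counting error only.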

Additional observations from a re-analysis of the deposited data

Results flagged for a closer look

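ugt-12, a glucuronosyltransferase gene, was apart in opposite directions in 2 classes of nuclei. In ribosomal-rich nuclei it had 35.9 CPM in ent-1KO, 50.6 CPM in ent-1KO;ent-2KD, 35.1 CPM in ent-2KO and 15.6 CPM in ctrl, a log2 ratio of ent-1KO to ctrl of 1.17 from 83 UMIs in ent-1KO and 17 in ctrl. In muscle-like nuclei it had 14.4 CPM in ent-1KO, 52.1 CPM in ent-1KO;ent-2KD, 13.4 CPM in ent-2KO and 57.8 CPM in ctrl, a ratio of -1.98 from 15 UMIs in ent-1KO and 36 in ctrl. Each class has 1 library per condition, and the difference between the classes was not tested.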

How the results depend on the processing

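No paired analysis was possible because each condition has 1 library. Over all nuclei, the 24 genes higher and 38 lower became 587 and 1063 with a minimum of 10 UMIs and no CPM minimum. They became 153 and 171 at 1.5-fold, and 16 and 17 with clusters weighted to the ctrl shares. Summed over classes, the 805 higher and 775 lower became 6093 and 5715 with the 10 UMI minimum, 3841 and 4700 at 1.5-fold, and 312 and 346 after thinning to 500 UMIs per nucleus. With the whole-library profile subtracted as free RNA, at 48.0 to 95% of the UMIs of a class, germline-like nuclei had 34 higher and 34 lower genes in place of 11 and 5, oocyte-like nuclei 42 and 138 in place of 12 and 17, embryo-like nuclei 193 and 120 in place of 86 and 19, ribosomal-rich nuclei 50 and 126 in place of 73 and 46, and sperm-like nuclei 127 and 16 in place of 79 and 68. The ent-1 ratio of -3.07 over all nuclei was -3.31 after thinning. A ratio changed sign for B0353.1 in sperm-like nuclei (0.16 without the richest nucleus), C53B7.3 in muscle-like nuclei (0.33 without integration), H01G02.1 in somatic gonad-like nuclei (0.995 without the richest nucleus, 0.66 thinned), nlp-6 in sperm-like nuclei (2.14 without doublets) and pals-26 in hypodermis-like nuclei (-0.70 without integration). Of 1318 gene ratios under the alternatives, 1152 kept their size within the counting interval, 160 moved and 6 changed sign; of 106 shares of nuclei, 66 and 40. The cause was not tested. With 1 library a condition, no difference can be set against the spread of replicates.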

Other observations

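A further search, with the limits chosen after seeing the data, was made for genes with at least 100 UMIs in ent-1KO or ctrl and at least 8-fold apart over all nuclei. Of the 7 higher in ent-1KO, 4 were flp-1, flp-11, nlp-49 and zig-2. dod-24 had 11.7 CPM in ent-1KO, 17.9 CPM in ent-1KO;ent-2KD, 3.94 CPM in ent-2KO and 0.952 CPM in ctrl, from 383 UMIs in 356 ent-1KO nuclei and 20 UMIs in 19 ctrl nuclei. irg-5, an infection response gene, had 124 UMIs in 114 ent-1KO nuclei, 156 UMIs in ent-1KO;ent-2KD, 15 in ent-2KO and 0 in ctrl, at least 26.5-fold higher in ent-1KO when 3 UMIs are allowed for ctrl. F14D2.19 had 90.7% of its 204 ent-1KO UMIs in 1 nucleus.

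Of the 16 lower genes, 13 had the same richest ctrl nucleus, the one that carried pharynx markers. It held between 32.3% (abu-14) and 78.7% (Y75B7AR.1) of their ctrl UMIs. Outside it Y75B7AR.1 had 48 ctrl UMIs and a ratio of -1.09.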
